A study of Rattus norvegicus with 12 samples.

Results

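Genes of phase II conjugation and of aldehyde oxidation were followed in rat lung across the 4 groups of a chronic obstructive pulmonary disease (COPD) model. Probes were named through their RefSeq accession, which gave a symbol to 17514 of 30367, and genes measured only by other probes are not counted. The set was then taken by name: every gene with a named probe whose symbol begins with Gsta, Gstm, Gstp, Gstt, Gsto, Gstk, Gstz, Mgst, Ugt1, Ugt2, Sult or Aldh, apart from Aldh3a1. This gave 59 genes of the 14737 with a symbol, measured by 67 probes. Detection asked for a probe flagged as well above background by the scanner software in all 3 rats of some group, which held for 37 of the 59 members and for 11146 of all 14737 genes. The brightest detected probe stood for the gene.

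Lung RNA of 12 male Sprague–Dawley rats, aged 8 to 12 weeks, was hybridized in a single colour to Agilent arrays, 1 array for each rat and 3 rats in each group. Rats of the CS + LPS group breathed cigarette smoke (CS) until day 30 and received lipopolysaccharide (LPS), a bacterial cell wall component, into the trachea on days 5 and 19. Rats of the CS + LPS + NaHS group had the same exposure and injections of NaHS, a donor of hydrogen sulfide, and those of the CS + LPS + PPG group had injections of propargylglycine (PPG), an inhibitor of the enzyme CTH, which forms hydrogen sulfide. Controls were given air and saline on the same schedule, and no group received NaHS or PPG alone. Tissue was collected 24 h after smoking ended, so the values describe 1 time point, in whole tissue of the left upper lobe, after about a month of exposure. In whole tissue, fewer cells of a type and less RNA per cell cannot be told apart.

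Phase II enzymes attach a large polar group to a reactive or foreign molecule so that it can be carried out of the cell. Glutathione transferases (GSTs) use glutathione, UDP-glucuronosyltransferases (Ugt genes) use glucuronic acid, and sulfotransferases (Sult genes) use sulfate taken from the donor PAPS. Aldehyde dehydrogenases (Aldh genes) oxidize aldehydes, among them those of smoke and of lipid peroxidation, to acids. In the lung these enzymes are abundant in the airway epithelium, above all in club cells, and many of their genes are known to be induced through the transcription factors Nrf2 and the aryl hydrocarbon receptor.

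Values are given as log2 signal, the processed signal of the scanner software set to a common 75th percentile across arrays, and a difference of 1 is a change of 2 times. The arrays lay on 2 slides. All 3 CS + LPS arrays and control replicate 3 were on slide 2, and the other 8 arrays were on slide 1, so differences between CS + LPS and the NaHS or PPG group cannot be told apart from the slide except through that 1 control. Control replicate 3 also stood apart from the other arrays, with correlations of 0.936 to 0.956 against medians of at least 0.982 for each of the others. Of the 37 detected members, 17 had their highest or lowest value of all 12 rats in control replicate 3, against 0 to 10 in each other rat, and the median SD of members was 0.296 in control, 0.214 in CS + LPS, 0.164 with NaHS and 0.154 with PPG. The club cell marker Scgb1a1 was well above background on all 12 arrays, and of 6 liver markers Serpina1 and Ttr were detected and Alb, Apoa1, Fgb and Tat were not. Markers of other tissues were also detected, 4 of 5 for heart (not Nppa), 3 of 5 for fat (not Lep, and Plin1 had no named probe) and 2 of 5 for pancreas (Ctrb1 and Cpa1). Their part in the values of the members was not tested.

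Detection differed between the enzyme classes. Nearly every aldehyde dehydrogenase (12 of 13) and most soluble GSTs (19 of 23) were detected, as were both microsomal GSTs, Mgst1 and Mgst2. Of the conjugating enzymes best known from liver, only 2 of 10 Ugt genes and 2 of 11 Sult genes were. The 2 Ugt genes were Ugt1a6 and Ugt1a9, which share their last exons in the Ugt1 locus, and none of the 8 genes of the Ugt2 family was detected through its named probes. A further probe, which the authors' list names Ugt2b37, had no RefSeq accession and was not counted. Sult1a1 and Sult1c2 were the detected sulfotransferases, while the steroid sulfotransferases Sult2a1, Sult2a2 and Sult2a6 and the thyroid hormone and amine enzymes Sult1b1 and Sult1d1 were not. Among the GSTs, Gsta2, Gstm3, Gstm6 and Gstt4 were not detected, and among the Aldh genes only the mitochondrial Aldh1b1. Of the 22 genes not detected, 11 were above background on no array and the other 11 on 1 to 3 arrays. Of the 37 detected genes, 34 were above background on all 12 arrays, and the exceptions were Gsto2, Sult1c2 and Ugt1a9.

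**Figure D1:**
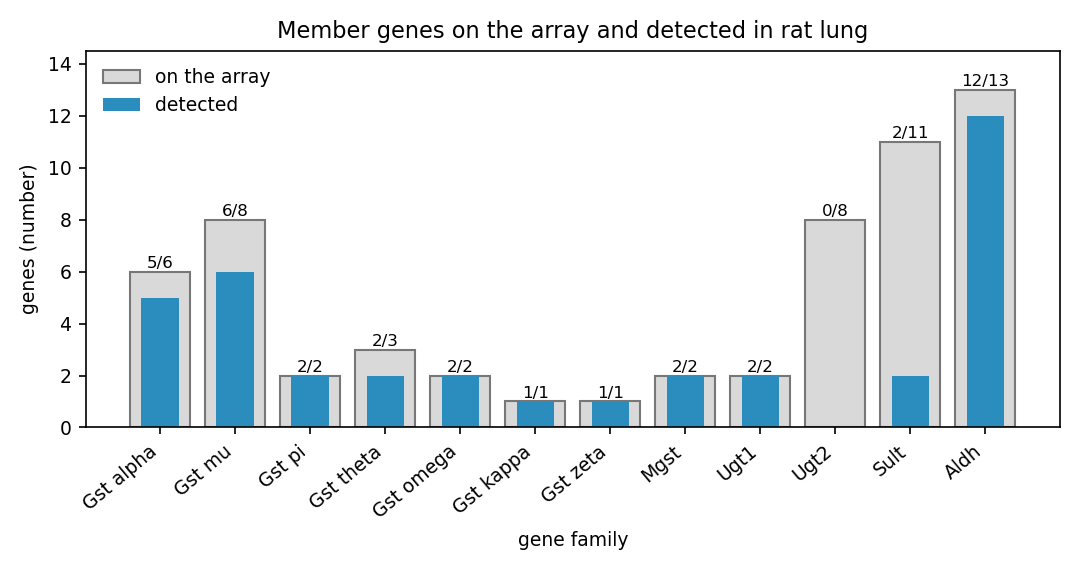
Bars give the number of member genes with a named probe on the array (grey) and the number detected (blue) in each gene family, with both counts written above. All families of GSTs and the Aldh family were mostly detected, whereas 0 of 8 Ugt2 genes and 2 of 11 Sult genes were.

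A gene was called differentially expressed (DE) by the thresholds of the study, 2 times or more in either direction with an unadjusted p below 0.05, here from limma. In CS + LPS against control 2 of 37 were DE, Gsto1 higher and Ugt1a9 lower, where 4.01% of all 11146 genes were DE. With NaHS none was DE against control (2.68% of all genes), and with PPG 1 was, again Gsto1 (4.57% of all genes). None was DE between NaHS and CS + LPS (1.2%), between PPG and CS + LPS (1.62%), or between NaHS and PPG (0.583%). With slide as a term in the fit, which leans on control replicate 3, the DE members were 3 in CS + LPS against control (Gsto1, Mgst1 and Ugt1a9), 0 with PPG against control, 3 for NaHS against CS + LPS (Gstm6l, Mgst1 and Ugt1a9) and 5 for PPG against CS + LPS (Aldh1a1, Gstm6l, Gsto2, Gstz1 and Ugt1a9). The share of all genes DE in that fit was not computed, so these counts are not read as a result about the members. Ugt1a9 passed the detection filter through NaHS and PPG alone, and Gsto2 through CS + LPS alone. Their differences between those groups are partly set by the filter.

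At an adjusted p below 0.05 from limma, the members were 1 in CS + LPS (2.05% of all genes), 0 with NaHS (0.126%) and 1 with PPG (5.42%) against control, with Gsto1 as that member each time. Between the exposed groups there were 0, where all genes gave 0.422% for NaHS against CS + LPS, 0.386% for PPG against CS + LPS and 0% for NaHS against PPG. At an unadjusted p below 0.05 with no fold threshold, 10 members passed in CS + LPS (24.2%), 8 with NaHS (18.2%) and 11 with PPG (29.7%) against control. Between the exposed groups this count was 3 for NaHS against CS + LPS (7.94%), 5 for PPG against CS + LPS (9.73%) and 4 for NaHS against PPG (8.23%). The DE members and the best known members of each family are described one by one, and other members named for their values were picked after those values were seen.

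Against control, 21 of 37 were higher and 16 lower in CS + LPS, with a median change of 0.05 on the log2 scale beside 0.001 over all genes. The median was 0.005 with NaHS and 0.02 with PPG. Sizes of change, whatever their sign, had a median of 0.31 in CS + LPS (0.27 over all genes), 0.27 with NaHS (0.23) and 0.26 with PPG (0.30). The 3 rats of CS + LPS lay wholly above the 3 controls for 6 members (13.3% of all genes did) and wholly below for 5 (11.5%). The same counts were 5 (13.1%) and 5 (13.3%) with NaHS, and 9 (18.4%) and 3 (16%) with PPG. The 3 comparisons share their control rats, so their counts are not independent.

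**Figure D2:**
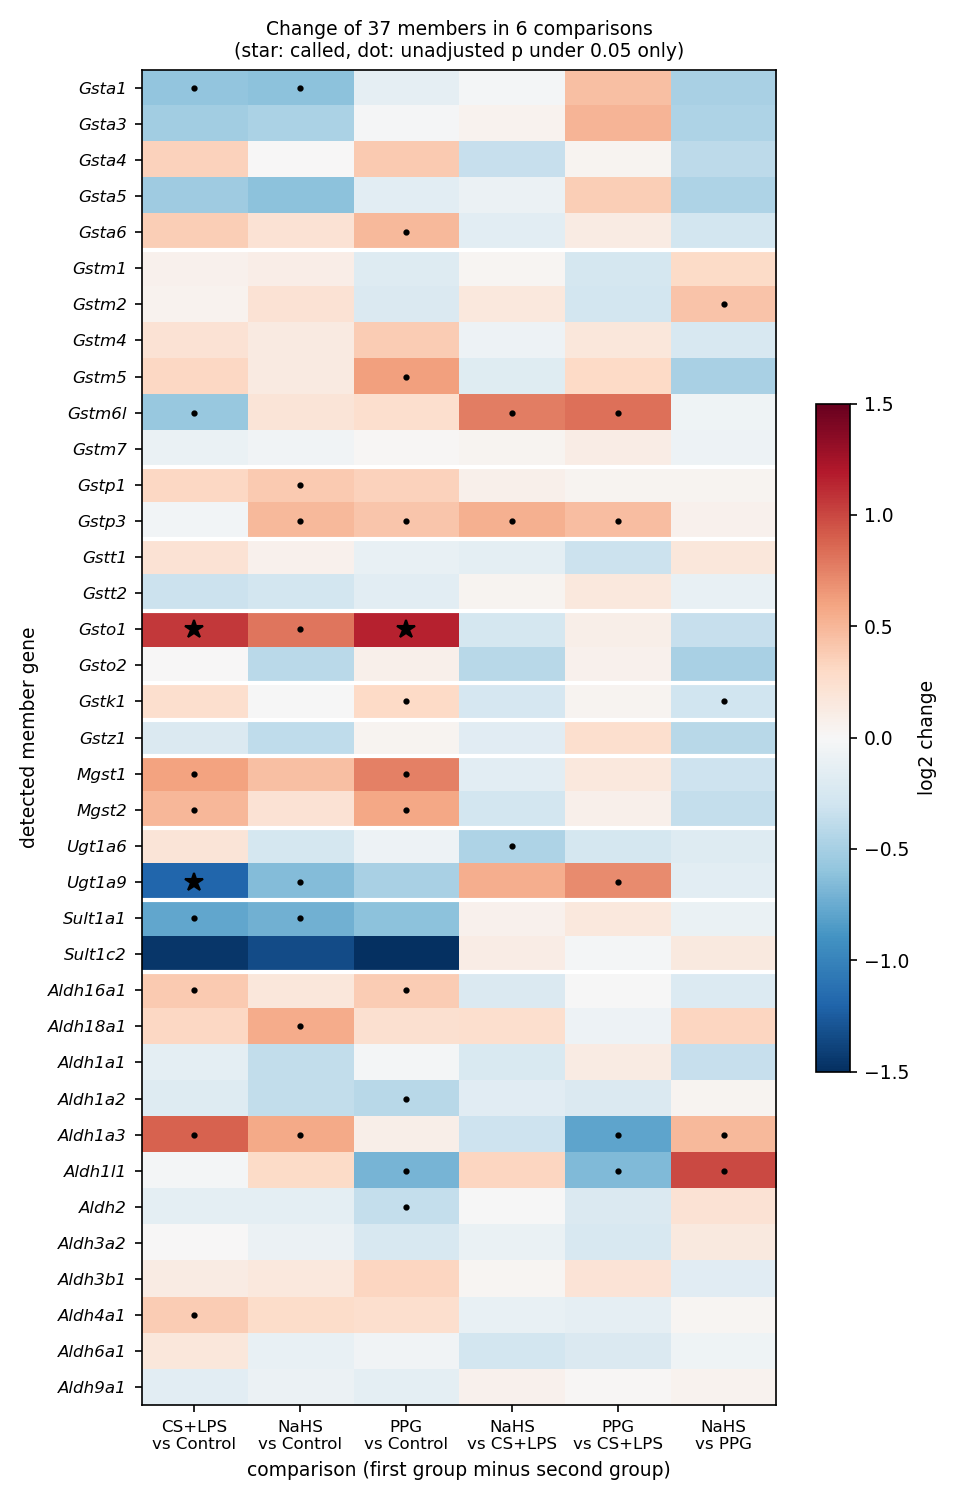
Each row is 1 of the 37 detected members, ordered by family, each column a comparison, and the colour the log2 change from limma, red for higher and blue for lower in the first group. Stars mark the 3 DE values, which are Gsto1 in CS + LPS and in PPG and Ugt1a9 in CS + LPS, and dots mark values with only an unadjusted p under 0.05.

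Gsto1 was the member that rose. It encodes the omega class GST, which carries a cysteine in its active site and is known for reducing dehydroascorbate and for removing glutathione from proteins rather than for conjugation. Its log2 signal was 11.34, 11.36 and 10.90 in the controls, 12.18, 12.21 and 12.40 in CS + LPS, 12.17, 11.97 and 11.85 with NaHS, and 12.28, 12.22 and 12.54 with PPG. All 9 exposed rats were above all 3 controls. The rise was 1.06 in CS + LPS (SE 0.16, 2.09 times, adjusted p = 0.016 from limma) and 1.15 with PPG (SE 0.16, 2.22 times, adjusted p = 0.0194 from limma). With NaHS the difference from control was 0.80 (SE 0.16, 1.74 times, adjusted p = 0.11 from limma), which is under the fold threshold. The NaHS rats were also all below the CS + LPS rats and all below the PPG rats, but these differences of -0.26 and -0.35 had adjusted p-values of 0.719 and 0.58 from limma. With slide as a term in the fit the first was -0.71 (adjusted p = 0.0489 from limma), a value in which control replicate 3 is the only link between the slides.

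Without control replicate 3, the lowest of the controls, the rise of Gsto1 was 0.91 in CS + LPS and 0.998 with PPG, just short of 2 times, and limma gave adjusted p = 0.0194 and 0.0166. Within slide 1, which holds 2 controls, it was 0.998 with PPG and 0.65 with NaHS. Within slide 2, where control replicate 3 is the only control, it was 1.36 in CS + LPS. Without CS + LPS replicate 3 the rise in CS + LPS was 0.995 with adjusted p = 0.0729 from limma. The direction was the same under each alternative and without each array in turn. The second omega gene, Gsto2, was close to background (above it on 2, 3, 1 and 2 arrays in the 4 groups, in the order above) and differed from control by 0.00 in CS + LPS, -0.41 with NaHS and 0.07 with PPG.

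**Figure D3:**
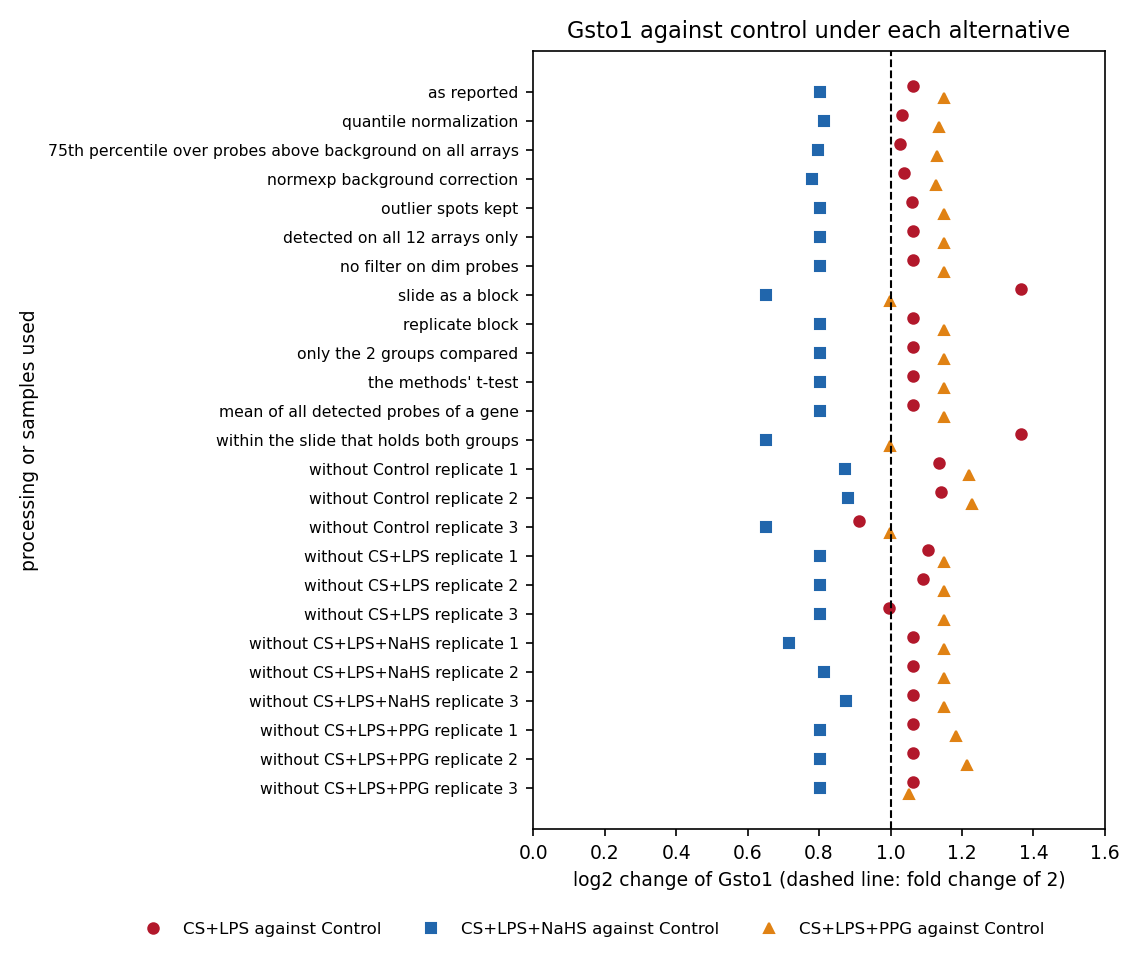
Points give the log2 change of Gsto1 against control under each processing alternative or without 1 array (rows) for CS + LPS (circles), CS + LPS + NaHS (squares) and CS + LPS + PPG (triangles), with the dashed line at a fold change of 2. All points lie above 0, between 0.65 and 1.36, and those of CS + LPS or PPG that fall short of the line are without control replicate 3, without CS + LPS replicate 3, within slide 1, or with slide in the fit.

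Macrophage and neutrophil markers also had higher mean summed signals in each exposed group than in control. Of the 4 macrophage markers, Cd68 and Mrc1 were detected, Marco was not detected and Msr1 had no named probe. Summed over both, the signal of the controls lay between 3768 and 7210. It lay between 11972 and 18714 in CS + LPS, between 12508 and 16016 with NaHS, and between 11162 and 15071 with PPG. Cd68 itself was higher than control by 1.39, 1.42 and 1.33 in the same order and was DE in each comparison. Over both markers the median change was 1.08, 1.03 and 0.95, and Mrc1 was not DE. For neutrophils, 4 of 6 markers were detected (Elane was not and Mpo had no named probe). Their summed signal lay between 7063 and 18396 in control and between 15256 and 34412 over the 9 exposed rats. Their median change was 0.84, 0.94 and 1.31, with 1, 1 and 3 of the 4 DE. Fcnb was the only DE marker in CS + LPS and with NaHS, and was DE in each comparison with changes of 2.78, 2.74 and 2.61. The part of these cells in the Gsto1 signal was not tested.

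The stretches of DNA before the starts of these genes were read for 3 short motifs, because Nrf2, the aryl hydrocarbon receptor and AP-1 are the factors best known for inducing this group of genes in response to oxidants and smoke. The sequences are RefSeq's, on build GRCr8, in a table with 51 of the 59 members (31 of the 37 detected) that holds 250 bases before and 50 after each start. The letters searched on both strands were TGACNNNGC, the core of the antioxidant response element that Nrf2 binds, GCGTG, the core of the xenobiotic response element, and TGANTCA, the AP-1 site, which can overlap the first. The antioxidant core was in the windows of 9 of the 31 detected members with a window (12.1% of all 33469 windows hold it), the xenobiotic core in 12 (29.7%) and the AP-1 site in 4 (7.33%). Members were counted by gene, with a match in any window of the gene, and the percentages by single window, so they are not directly comparable. Over all 51 members with a window the counts were 10 (19.6%), 14 (27.5%) and 5 (9.8%), in the same order. A match is only a match of letters. Gsto1, Mgst1, Gstm5 and Gstp1 were the detected members with an AP-1 match. In Gsto1 it begins at base 25 after the start, as gtgcttccTGAGTCAcccgcaaa with the match in capitals, and neither of the other motifs was found. The 250 bases before its start (chr1:256662281-256662530, plus strand) are shown because it was the member that rose, and they hold no capitals since no motif was found there.
Gsto1: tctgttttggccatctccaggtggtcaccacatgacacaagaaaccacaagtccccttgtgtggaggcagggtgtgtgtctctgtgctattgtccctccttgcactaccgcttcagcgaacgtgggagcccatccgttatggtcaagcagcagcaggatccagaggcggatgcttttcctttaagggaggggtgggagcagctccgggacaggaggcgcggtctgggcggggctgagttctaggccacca

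The 5 detected alpha class GSTs, which conjugate lipid peroxidation products and carry much of the glutathione peroxidase activity toward lipid hydroperoxides, split in sign. Gsta1, Gsta3 and Gsta5 had lower means in CS + LPS than in control and Gsta4 and Gsta6 had higher means, and no alpha gene was DE. Gsta1 had log2 signals of 15.87, 15.52 and 15.33 in control, 15.28, 14.81 and 14.85 in CS + LPS, 15.01, 15.02 and 14.82 with NaHS, and 15.06, 15.18 and 16.07 with PPG. All CS + LPS and NaHS rats were below all controls, and PPG replicate 3 was above all other rats. The differences from control were -0.59 in CS + LPS (SE 0.26, adjusted p = 0.186 from limma), -0.62 with NaHS (adjusted p = 0.265) and -0.13 with PPG (adjusted p = 0.753).

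Gsta3 and Gsta5 are described here because their values, once seen, ran alongside those of Gsta1. Gsta3, an alpha GST of broad substrate range, was 14.47, 13.90 and 13.74 in control, 13.90, 13.48 and 13.15 in CS + LPS, 13.57, 13.64 and 13.47 with NaHS, and 13.57, 13.77 and 14.72 with PPG. Gsta5, a relative known in rat for aflatoxin epoxide conjugation, was 10.64, 9.996 and 10.09 in control, 9.91, 9.70 and 9.52 in CS + LPS, 9.65, 9.69 and 9.53 with NaHS, and 9.53, 9.90 and 10.82 with PPG. In all 3 genes PPG replicate 3 held the highest value of the 12 rats and control replicate 1 the next highest. The changes of Gsta3 were -0.53, -0.48 and -0.02, and those of Gsta5 were -0.53, -0.62 and -0.16, for CS + LPS, NaHS and PPG against control. A second Gsta3 probe gave 0.19, -0.27 and 0.64, so the direction for CS + LPS and PPG depends on the probe. These genes are close relatives, and whether a probe also bound the transcript of another was not tested.

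Gsta4, the alpha enzyme with high activity toward 4-hydroxynonenal, an aldehyde of lipid peroxidation, was 15.37, 15.48 and 14.88 in control, 15.44, 15.65 and 15.69 in CS + LPS, 15.43, 15.00 and 15.31 with NaHS, and 15.33, 15.70 and 15.89 with PPG. Its difference from control was 0.35 in CS + LPS, 0.00 with NaHS and 0.40 with PPG, with adjusted p of 0.285, 0.992 and 0.213 from limma, and the groups overlapped. Gsta6 gave 0.37, 0.21 and 0.49. Its 3 PPG rats, at 11.21, 11.41 and 11.16, were above the controls at 10.54, 10.69 and 11.06. Between NaHS and PPG, which share slide 1, all 5 detected alpha genes had lower means with NaHS. The differences ran from -0.48 to -0.28, with adjusted p-values from limma of 0.595 or more, and the second Gsta3 probe gave -0.92 (adjusted p = 0.563 from limma). Without PPG replicate 3 the differences were -0.16 for Gsta1, -0.11 for Gsta3 and -0.09 for Gsta5, and -0.27 for Gsta4 and -0.33 for Gsta6. For Gsta4, leaving out control replicate 3 instead gave 0.17 in CS + LPS and 0.21 with PPG against control.

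Club cells are a major site of alpha class GSTs, and the club cell list (5 of 5 markers detected) gave a median change of -0.59 in CS + LPS, -0.66 with NaHS and -0.51 with PPG, with none DE. Its summed signal lay between 294647 and 622666 in the controls (mean 410945) and between 227313 and 312274 over the 9 exposed rats. The lowest control was thus close to the highest rat of CS + LPS (287961) and of NaHS (293975) and below the highest with PPG (312274). The control mean lay nearer the lowest control than the highest, so the highest control carried much of the difference in summed signal. The part of club cells in the values of Gsta1, Gsta3 and Gsta5 was not tested.

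Gsta1 and Gsta3 hold nearly the same stretch around the antioxidant core, ctcaggcaTGACTTTGCatttttct in Gsta1 (base 31 after the start) and ctcaggcaTGACTTCGCattttttc in Gsta3 (position -17, counted back from the base before the start as -1). The 250 bases before the start are shown for both, at chr9:31216533-31216782, minus strand, for Gsta1, and at chr9:31154739-31154988, plus strand, for the first of 2 starts listed for Gsta3, with the antioxidant core in capitals. In Gsta1 no motif lies before the start.
Gsta1: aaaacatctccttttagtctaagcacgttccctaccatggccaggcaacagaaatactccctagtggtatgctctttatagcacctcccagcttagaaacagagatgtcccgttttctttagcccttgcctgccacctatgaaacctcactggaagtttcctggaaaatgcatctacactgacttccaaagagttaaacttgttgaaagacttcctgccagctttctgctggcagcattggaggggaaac
Gsta3: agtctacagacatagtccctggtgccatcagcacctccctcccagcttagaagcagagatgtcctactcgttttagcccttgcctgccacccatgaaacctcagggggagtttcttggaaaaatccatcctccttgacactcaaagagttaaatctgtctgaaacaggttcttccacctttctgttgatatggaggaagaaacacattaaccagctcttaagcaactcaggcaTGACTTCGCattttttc

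The mu class, which conjugates epoxides and other electrophiles, had 6 detected members, and none was DE. Gstm1, its main member, was 11.36, 11.59 and 12.18 in control, 11.96, 11.26 and 12.12 in CS + LPS, 11.79, 11.71 and 11.91 with NaHS, and 11.66, 11.48 and 11.43 with PPG, with overlap between every exposed group and control. It differed from control by 0.07, 0.10 and -0.19 (SE 0.25 each). Over the class the changes ran from -0.57 to 0.31 in CS + LPS, from -0.05 to 0.21 with NaHS and from -0.22 to 0.62 with PPG.

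The extreme of the class in CS + LPS was Gstm6l, a mu class gene of which less is known, singled out after its values were seen. Its log2 signal was 6.20, 6.20 and 6.72 in control, 6.07, 5.70 and 5.65 in CS + LPS, 6.97, 6.37 and 6.37 with NaHS, and 6.64, 6.53 and 6.73 with PPG. All 3 CS + LPS rats were below the 9 others. The differences were -0.57 against control (adjusted p = 0.135 from limma), 0.77 for NaHS over CS + LPS (adjusted p = 0.169) and 0.83 for PPG over CS + LPS (adjusted p = 0.143). With slide as a term in the fit they were -0.92, 1.29 and 1.35, with adjusted p = 0.0162, 0.0205 and 0.0179 from limma, values that again rest on control replicate 3.

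Gstp1, the pi class GST of airway epithelium, was 13.38, 13.59 and 13.26 in control, 13.59, 13.63 and 13.94 in CS + LPS, 13.96, 13.55 and 13.88 with NaHS, and 13.90, 13.86 and 13.50 with PPG. Each exposed group overlapped the controls, and the differences of 0.31, 0.39 and 0.35 (SE 0.17 each) had adjusted p = 0.271, 0.281 and 0.203 from limma. Gstp3, a pi class relative chosen after its values were seen, was 6.82, 6.73 and 6.73 in control, 6.77, 6.47 and 6.91 in CS + LPS, 7.498, 7.19 and 7.06 with NaHS, and 7.30, 7.10 and 7.15 with PPG. All 6 treated rats were above the other 6, with differences from CS + LPS of 0.53 for NaHS and 0.46 for PPG (adjusted p = 0.202 and 0.286 from limma), a split that coincides with the slides except for control replicates 1 and 2.

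The window of Gstp1 is shown because a single run of letters there, at position -61, matches the antioxidant core and the AP-1 site together, the arrangement in which these 2 motifs overlap. Capitals mark that run and, near the left end, a xenobiotic core read on the opposite strand (chr1:210769706-210769955, minus strand).
Gstp1: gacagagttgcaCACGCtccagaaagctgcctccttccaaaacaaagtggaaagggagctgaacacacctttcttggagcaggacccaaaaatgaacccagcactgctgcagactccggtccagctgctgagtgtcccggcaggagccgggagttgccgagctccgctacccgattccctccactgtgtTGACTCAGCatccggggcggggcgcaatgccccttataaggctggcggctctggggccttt

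Among the classes with 1 or 2 detected members, Gstt1 and Gstt2 of theta, which act on small halogenated compounds, Gstk1 of kappa, a mitochondrial and peroxisomal enzyme, and Gstz1 of zeta, which isomerizes maleylacetoacetate in tyrosine breakdown, were not DE. Gstk1 was 10.84, 10.86 and 11.08 in control, 11.19, 11.11 and 11.26 in CS + LPS, 11.13, 10.76 and 10.89 with NaHS, and 11.12, 11.34 and 11.22 with PPG. The CS + LPS and PPG rats were all above the controls, by 0.26 and 0.30 on average, with adjusted p = 0.249 and 0.17 from limma. Gstt1 had means of 9.88 in control, 10.09 in CS + LPS, 9.94 with NaHS and 9.77 with PPG. Gstz1 had means of 12.45, 12.23, 12.07 and 12.49 in the same order, and its control replicate 3, at 13.05, was the highest of the 12 rats. Without it Gstz1 differed from control by 0.08, -0.09 and 0.33.

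Both microsomal GSTs, membrane enzymes that conjugate and also reduce lipid hydroperoxides, had higher means in each exposed group than in control, and neither was DE. For both, control replicate 3 was the lowest rat and carried much of the difference. Mgst1 was 13.21, 13.01 and 12.05 in control, 13.18, 13.47 and 13.43 in CS + LPS, 13.43, 13.14 and 13.05 with NaHS, and 13.30, 13.53 and 13.72 with PPG. The differences from control were 0.60, 0.45 and 0.76 (SE 0.26 each; adjusted p = 0.185, 0.39 and 0.0976 from limma). Without that control they were 0.25, 0.10 and 0.41, and limma gave adjusted p = 0.433, 0.852 and 0.166. With slide in the fit Mgst1 was DE in CS + LPS, with a difference of 1.31 (adjusted p = 0.00153 from limma) that rests on that control alone.

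Mgst2, which also forms leukotriene C4, had means of 12.58 ± 0.40 in control, 13.08 ± 0.27 in CS + LPS, 12.80 ± 0.16 with NaHS and 13.15 ± 0.14 with PPG (SD, n = 3 each). Its CS + LPS and PPG rats were all above the controls. The differences of 0.50, 0.22 and 0.58 had adjusted p = 0.173, 0.594 and 0.109 from limma. Without control replicate 3 the differences of Mgst2 were 0.27, -0.007 and 0.35, so that the one with NaHS was no longer positive.

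Ugt1a9 was the member that passed the threshold as lower in CS + LPS. It conjugates phenols with glucuronic acid, and its signal here was close to background. The log2 signal was 5.58, 5.12 and 6.13 in control, 4.80, 4.31 and 4.16 in CS + LPS, 5.39, 5.002 and 4.50 with NaHS, and 4.87, 5.17 and 5.34 with PPG. Its probe was well above background on 2 of 3 control arrays, 1 of 3 in CS + LPS and all 3 in each treated group, so the CS + LPS level is partly a background value. Ugt1a9 passed the detection filter through the NaHS and PPG groups alone. A lower value in CS + LPS than in those groups is thus partly set by the filter. The difference in CS + LPS was -1.19 (SE 0.29, 2.29 times lower, adjusted p = 0.0642 from limma), with all 3 rats below the controls. It was -0.65 with NaHS and -0.49 with PPG, where the groups overlapped control. Within slide 2 it was -1.71 in CS + LPS (adjusted p = 0.00481 from limma), against control replicate 3 alone. The value was -0.83 after quantile normalization, -0.69 after another background correction (normexp) and -0.93 without control replicate 3, and in these settings Ugt1a9 was not DE.

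Ugt1a6, the phenol glucuronosyltransferase regulated by the aryl hydrocarbon receptor, was 12.04, 11.97 and 12.48 in control, 12.29, 12.24 and 12.56 in CS + LPS, 11.81, 11.83 and 12.07 with NaHS, and 12.24, 12.09 and 11.95 with PPG. Its differences from control were 0.20, -0.26 and -0.07, with overlap in each, where a second probe gave 0.21, 0.10 and 0.02. NaHS rats were all below the CS + LPS rats, by 0.46 on average (adjusted p = 0.349 from limma), a comparison across slides, in which the second probe gave -0.10. With slide in the fit that difference of Ugt1a6 was 0.02.

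Sult1a1, the phenol sulfotransferase, was lower on average in each exposed group. It was 15.84, 15.79 and 15.21 in control, 15.03, 14.93 and 14.53 in CS + LPS, 14.88, 15.14 and 14.65 with NaHS, and 14.42, 15.00 and 15.56 with PPG. All 6 rats of CS + LPS and of NaHS were below the controls, and PPG spanned the ranges of both. The differences were -0.78, -0.72 and -0.62 (SE 0.28 each) with adjusted p = 0.134, 0.25 and 0.172 from limma, and Sult1a1 was not DE. Within slide 1, against the 2 controls there, they were -0.93 with NaHS and -0.82 with PPG, and within slide 2, against the 1 control there, -0.38 in CS + LPS. The club cell list, given above, also had a negative median change in these groups, with none DE, and its part in the Sult1a1 values was not tested.

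Sult1c2 had the most negative differences from control of the set and also the widest spread, and is named after its values were seen. It was 5.41, 5.73 and 6.004 in control, 4.32, 5.93 and 2.52 in CS + LPS, 3.97, 5.18 and 3.96 with NaHS, and 4.84, 3.42 and 4.42 with PPG, and was above background on 3, 2, 1 and 1 arrays in that order. The differences of -1.46, -1.35 and -1.49 (SE 0.71 each) had adjusted p = 0.221, 0.345 and 0.188 from limma. Sult1c2 passed the detection filter through control alone, the group in which it was highest, so a lower value elsewhere is partly set by the filter. Without CS + LPS replicate 3 the first difference was -0.59. The CS + LPS rats alone ran from 2.52 to 5.93, more than the whole difference from control.

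Of the 12 detected aldehyde dehydrogenases none was DE in any comparison in the main fit, without slide as a term. Aldh1a1, a cytosolic enzyme of retinal and lipid aldehydes, was 15.38, 15.38 and 16.36 in control, 15.50, 15.55 and 15.63 in CS + LPS, 15.48, 15.12 and 15.40 with NaHS, and 15.67, 15.85 and 15.51 with PPG. Control replicate 3 was the highest rat, and the differences from control were -0.15, -0.37 and -0.03 (SE 0.24 each). Without that control the differences of Aldh1a1 were 0.18, -0.04 and 0.30, so the sign turned for CS + LPS and PPG, and within slide 2, against that control alone, the CS + LPS difference was -0.80. Aldh2, the mitochondrial enzyme that clears acetaldehyde, was 14.77 ± 0.12, 14.63 ± 0.10, 14.62 ± 0.15 and 14.41 ± 0.09 in control, CS + LPS, NaHS and PPG (SD, n = 3 each). Its PPG rats were all below the controls, by 0.36 on average (adjusted p = 0.0998 from limma). Aldh3a2, the fatty aldehyde dehydrogenase, differed from control by 0.00, -0.09 and -0.24, with overlap in each, and a second probe gave -0.24, 0.20 and -0.16.

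Aldh1a3, which forms retinoic acid from retinal, came closest to the threshold in CS + LPS. It was 6.02, 6.10 and 6.26 in control, 6.73, 7.02 and 7.28 in CS + LPS, 7.12, 6.55 and 6.41 with NaHS, and 6.05, 6.37 and 6.22 with PPG. Rats of the CS + LPS and the NaHS group were all above the controls, and the PPG rats overlapped the controls. The difference was 0.88 in CS + LPS (SE 0.20, 1.84 times, adjusted p = 0.0538 from limma), 0.57 with NaHS (adjusted p = 0.217) and 0.09 with PPG (adjusted p = 0.799). Compared with CS + LPS, the PPG group differed by -0.80 (adjusted p = 0.153 from limma) across slides, and by -0.59 (adjusted p = 0.261) with slide in the fit. Quantile normalization gave 1.15 in CS + LPS (adjusted p = 0.0429 from limma), which was DE, and the normexp background correction gave 0.25 (adjusted p = 0.358 from limma). The paper, with the same thresholds and its own processing, lists Aldh1a3 as a DE gene that was upregulated in CS + LPS against control.

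Aldh1l1, the formyltetrahydrofolate dehydrogenase of folate metabolism, was singled out after its values were seen as the member that differed most between the treatments. It was 8.53, 8.76 and 8.99 in control, 9.07, 8.51 and 8.59 in CS + LPS, 9.05, 9.34 and 8.77 with NaHS, and 7.91, 8.05 and 8.22 with PPG. The 3 PPG rats were below the 9 others. NaHS exceeded PPG by 0.99 (SE 0.20, 1.99 times, adjusted p = 0.563 from limma), just under 2 times, on a shared slide. PPG differed from control by -0.70 (adjusted p = 0.0663 from limma) and from CS + LPS by -0.67 (adjusted p = 0.244). With slide in the fit the latter was -0.32 (adjusted p = 0.523 from limma).

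The other Aldh genes had smaller differences. Aldh4a1, of proline breakdown, was higher than control in all rats of CS + LPS, NaHS and PPG, by 0.38, 0.27 and 0.25 (adjusted p = 0.134, 0.328 and 0.251 from limma), although a second probe of the gene gave 0.04, -0.18 and -0.32. Without control replicate 3 the Aldh4a1 differences were 0.24, 0.13 and 0.10. Aldh18a1, of proline synthesis, was higher with NaHS by 0.56 (adjusted p = 0.194), and its second probe gave 0.50. Aldh16a1, Aldh1a2, Aldh3b1, Aldh6a1 and Aldh9a1 differed from control by -0.41 to 0.39 in the 3 exposed groups, none DE.

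**Figure D4:**
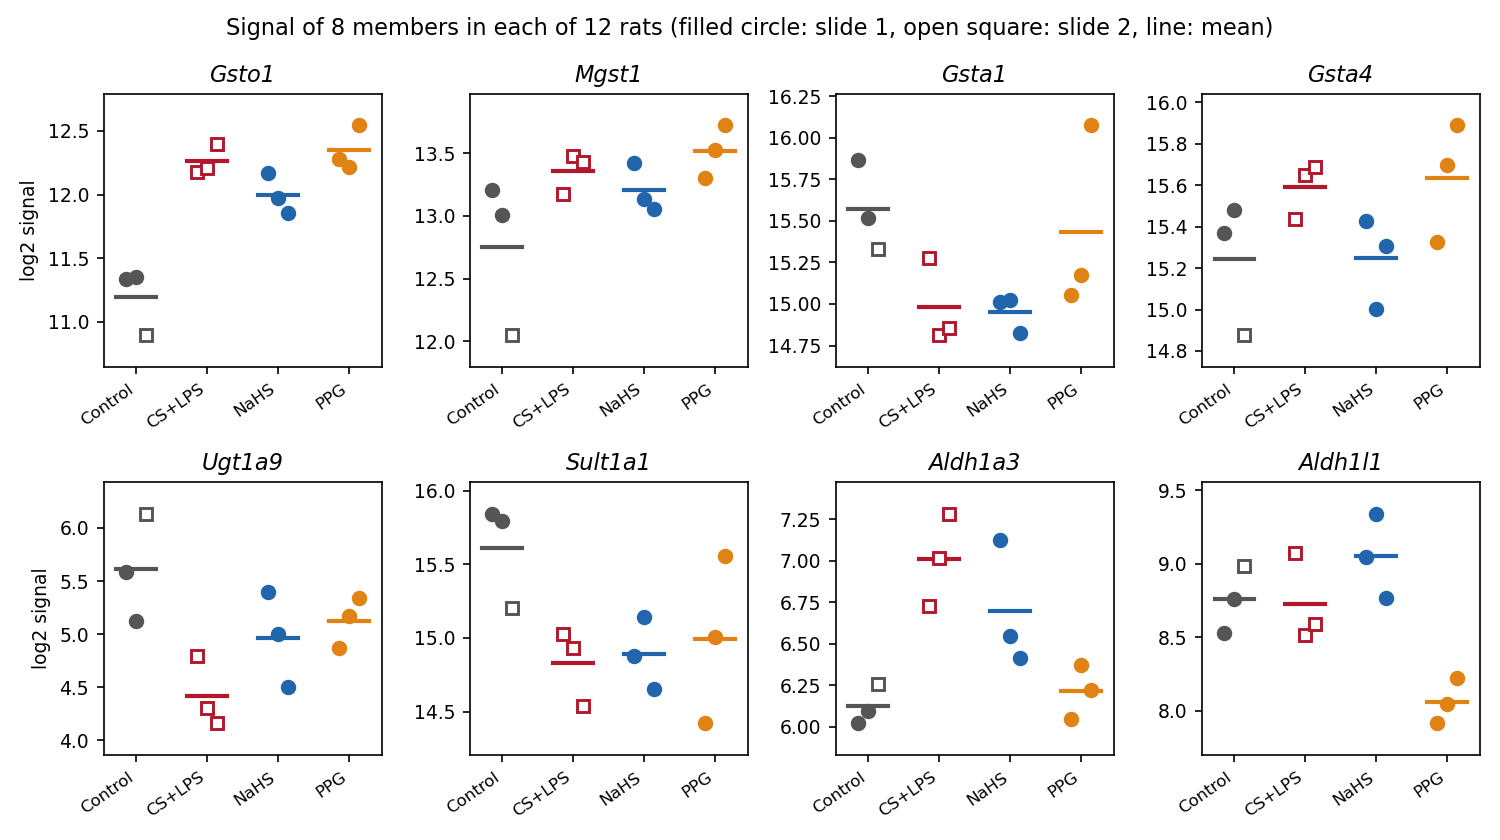
Each point is the log2 signal of 1 rat for 8 members in the 4 groups, filled circles for arrays of slide 1 and open squares for slide 2, with a line at the mean of the 3 rats. In Gsto1 all 9 exposed rats lie above the controls, in Aldh1l1 the PPG rats lie below all others, and the open square of control, replicate 3, is the lowest or highest control in each panel.

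The treatments were compared with each other and with CS + LPS. Between NaHS and CS + LPS the median change of the members was -0.08 (-0.03 over all genes), with 2 members wholly higher (10.2% of all genes) and 5 wholly lower (8.78%). Between PPG and CS + LPS it was 0.07 (-0.009), with 5 wholly higher (8.87%) and 7 wholly lower (10%). NaHS against PPG gave a median of -0.11 (0.003 over all genes), with 14 of 37 members higher, 5 wholly higher (12.9%) and 7 wholly lower (13.3%). By class in that comparison, 14 of 19 soluble GSTs were lower with NaHS and 8 of 12 Aldh genes were higher, where 5519 of all 11146 genes were lower and 5627 higher. Fat and heart markers were also lower with NaHS than with PPG, with medians of -1.20 over 3 fat markers, 1 of them DE, and -2.73 over 4 heart markers, none DE. The summed fat signal lay between 618 and 1156 with NaHS and between 1974 and 4082 with PPG, the heart signal between 10194 and 52945 with NaHS and between 38716 and 67092 with PPG, and their part in the values of the members was not tested. No adjusted p of a member was under 0.05 in these comparisons in the fit without slide. With slide in the fit, members with an adjusted p under 0.05 from limma numbered 9 for NaHS against CS + LPS, 7 for PPG against CS + LPS and 0 for NaHS against PPG. The counts against CS + LPS rest on control replicate 3 as the only link between the slides. The share of all genes passing in that fit was not computed, so they are not read as a response of the members.

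Genes around these enzymes were read from a list of 46, made up of 8 for cofactor supply, 9 regulators, 6 exporters and 23 neighbouring enzymes of detoxification, of which 42 had a named probe and 39 were detected. Of these, 2 were DE as higher and 1 as lower in CS + LPS (4.01% of all genes were DE), 1 and 1 with NaHS (2.68%), and 3 and 0 with PPG (4.57%), against control. All but Abcc2 were neighbouring enzymes. Hpgds, the sigma class GST that makes prostaglandin D2, was higher by 1.71 in CS + LPS, 0.85 with NaHS and 1.55 with PPG, and was DE in CS + LPS and PPG (adjusted p = 0.0766 and 0.0704 from limma). Abcc2, an exporter of glutathione conjugates, was DE in each, by 1.14, 1.20 and 1.41, with adjusted p of 0.104, 0.173 and 0.0513 from limma. Aox1, an aldehyde oxidase, was DE as lower in CS + LPS (-1.25), Adh7, an alcohol dehydrogenase, as lower with NaHS (-2.39) and Nqo2, a quinone reductase, as higher with PPG (1.20), with adjusted p = 0.198, 0.261 and 0.0816 from limma. Akr1b8, an aldo-keto reductase, was higher with NaHS than in CS + LPS by 1.04 and was DE (adjusted p = 0.278 from limma).

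Other genes of that list are named after their values were seen. Nqo1, the quinone reductase often used as a readout of Nrf2, differed from control by 0.00, -0.05 and -0.06, and Nfe2l2, the gene of Nrf2, by -0.05, -0.14 and -0.04, in CS + LPS, NaHS and PPG. Over the 8 detected regulators the median change was -0.53, -0.29 and -0.57 in the same order, with none DE. Mafg, a small partner of Nrf2, was under control by less than 2 times, with differences of -0.91 in CS + LPS (adjusted p = 0.0327 from limma), -0.47 with NaHS and -0.68 with PPG. Papss2, which makes the sulfate donor PAPS, had differences of -0.68, -0.63 and -0.69, for which limma gave adjusted p = 0.0521, 0.141 and 0.0418. Abcc4, another exporter, differed by -0.89 with PPG (adjusted p = 0.0213 from limma).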

How the data were processed

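Each of the 12 deposited files is the scanner output of 1 Agilent rat array, hybridized in 1 colour with labelled RNA of 1 lung and read by the authors with Agilent Feature Extraction (10.7 in the submitters' processing notes, 10.7.3.1 in the file headers). The intensity used is the processed signal, which the authors' software had background-subtracted and detrended but not scaled between arrays. In 3 files it is kept to 3 significant digits. The authors' deposited lists of DE genes, which hold their fold changes, log2 values and p-values, were not used. No spot of any array was saturated, and 66.0 to 75.5% of probes were well above background. The precision is limited by the 3 arrays of each group.

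From these values, spots flagged as outliers were left out, spots of a probe were averaged, and log2 signals were shifted to a common 75th percentile. Of 30367 probes, 21239 were detected, with at least 0.5 of a probe's spots well above background. limma (3.58.1, R 4.3.3) was fitted to all 12 arrays with Benjamini-Hochberg adjustment over the detected probes. The 6 comparisons of the 4 groups were tested, and a script was tested on simulated data. Genes were named through the RefSeq accession of the probe. The alternatives were quantile normalization, the 75th percentile taken over probes above background on all arrays, normexp (offset 50, on median signals), other filters, slide as a block, each slide alone, a replicate block, 2-group fits, the methods' t-test (on the same values, with adjusted p), all probes of a gene averaged, and each array left out. DE members and canonical members of each family were named by rule. Values of each rat were planned for DE members and were added for others. The members and gene lists were chosen with earlier results of these data known. The labels do not say that rats of a group are from separate litters or cages, so p-values measure the spread between these rats. Motifs were counted with Python 3.11.15.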

Additional observations from a re-analysis of the deposited data

How the results depend on the processing

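The direction of Gsto1 and Ugt1a9 was the same under every alternative run. Gsto1 in CS + LPS ranged from 1.03 to 1.36 over 12 alternatives (adjusted p 0.000668 to 0.313 from limma or the methods' t-test, below 0.05 in 9 of 12), and from 0.91 to 1.14 with 1 array left out. In PPG it ranged from 0.998 to 1.15 (adjusted p 0.0155 to 0.167, 9 of 12), and from 0.998 to 1.23 with 1 array left out. Ugt1a9 in CS + LPS ranged from -1.71 to -0.69 (adjusted p 0.00481 to 0.398 over 11 alternatives), and from -1.44 to -0.93 with 1 array left out.

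The number of DE members moved as follows, without shares of all genes, which were not computed for the alternatives. The cause was not tested. For CS + LPS against control, main count 2, it was 1 with normexp, 1 with probes detected on all 12 arrays 5 with no filter on dim probes, 3 with slide as a block and 3 within the slide (both adding Mgst1), and 0 to 3 with 1 array left out (0 without control replicate 3, 1 without CS + LPS replicate 3). For NaHS against control, main count 0, it was 3 with no filter, 1 with the 2-group fit, 1 with the methods' t-test, and 0 to 1 with 1 array left out (1 without CS + LPS replicate 2 or 3 or NaHS replicate 2). For PPG against control, main count 1, it was 0 with slide as a block, 0 within the slide, 2 with the 2-group fit, 2 with the methods' t-test, and 0 to 2 with 1 array left out (0 without control replicate 3, 2 without CS + LPS replicate 2 or 3). For NaHS against CS + LPS, main count 0, it was 3 with slide as a block (Gstm6l, Mgst1 and Ugt1a9), and 0 with any 1 array left out. For PPG against CS + LPS, main count 0, it was 1 with no filter (Ugt2a1) and 5 with slide as a block (Aldh1a1, Gstm6l, Gsto2, Gstz1 and Ugt1a9). For NaHS against PPG, main count 0, it was 1 with the percentile over probes above background on all arrays (Aldh1l1), 1 with no filter (Sult1c3), and 0 to 1 with 1 array left out (1 without NaHS replicate 3 or PPG replicate 3). Comparison within a slide was not possible for NaHS or PPG against CS + LPS. Without a filter, the median of all probes shifted by -0.21, -0.11 and -0.13 in the 3 comparisons with control, and with normexp by -0.14, -0.10 and -0.09.

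The replicate block left every count of DE members as it was, while members with an adjusted p under 0.05 went from 1 to 0 in CS + LPS and from 1 to 0 with PPG against control, with adjusted p = 0.0507 and 0.0519 for Gsto1 in CS + LPS and PPG and 0.108 for Ugt1a9 from limma. Rats with the same number did not deviate together (18 pairs, r from -0.31 to 0.14, median -0.10), beside a median of 0.06 over 36 pairs with unlike numbers. The values give no sign of pairing by number but cannot exclude it, since the pairs share arrays. Signals near background, such as those of Ugt1a9, Sult1c2 and Gsto2, are the least certain.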
